A study of Mus with 6 samples.

Results

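The genes described here are the mouse zinc finger protein genes whose symbol is Zfp followed by a number, measured by RNA-Seq in activated CD4+ T cells treated with anti–VEGF-B or with control IgG. A gene was a member if it carried such a name and its mean over the 6 libraries was at least 1 FPKM (fragments scaled for transcript length and for the total of the library). Zfp36, which encodes an mRNA decay factor of another zinc finger class, was left out. Of 281 such genes among the 10995 listed, 185 were members and 96 lay under the filter. The name is a label given to genes in the order they were found, so the set holds several families, and 23 listed genes whose Zfp name carries a suffix were not members.

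Most Zfp genes encode C2H2 zinc finger proteins, in which arrays of short zinc-binding modules read DNA. Many of these, the KRAB zinc finger proteins, carry a KRAB box that binds TRIM28 (KAP1). TRIM28 brings in the histone methyltransferase SETDB1, HP1 proteins and histone deacetylases, and the target, often a transposable element, is silenced. The KRAB genes have multiplied by local duplication and sit in clusters on several chromosomes, and most are transcribed at a low level. Other Zfp names belong to activators, corepressors without a KRAB box, RNA-binding proteins and ubiquitin ligases.

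Naive CD4+ T cells from the spleen of WT mice were activated in culture for 3 days with anti-CD3 (5 μg/mL), anti-CD28 (2 μg/mL) and IL-2 (100 U/mL), all shared by both groups. The cells of 3 libraries also received an antibody that neutralizes VEGF-B, and those of the other 3 received normal IgG, each at 1 μg/mL. The labels give no strain, age or sex, and do not say whether the replicates came from separate cultures or animals, so p-values measure only the spread between these libraries, which may be technical. In bulk RNA, fewer cells of a type and less RNA per cell cannot be told apart.

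The FPKM summed to between 260058 and 276622 per library, and the read depth is unknown. No member was listed at 0 in any library, while each anti–VEGF-B library had 59 to 91 listed genes at 0 and each IgG library 36 to 37. All 10 CD4+ T cell markers were measured and summed to 639–696 FPKM in the anti–VEGF-B libraries and 647–743 in the IgG libraries, and 3 of them passed the test, all lower (Cd3e −0.51, Cd5 −0.38 and Cd6 −0.33 on the log2 scale). Of 17 markers of other cell types, 11 were not among the listed genes. The 6 listed summed to 9.50–9.67 FPKM in 5 libraries and to 23.4 in IgG replicate 3, where Lyz2 was 16.4 against 3.26–4.19 elsewhere. The part of these markers in the results below was not tested.

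As among all tested genes, more Zfp genes were called lower than higher with anti–VEGF-B. Of the 185 members, 53 (28.6%) were called lower and 6 (3.24%) higher by limma on log2(FPKM + 1) at an adjusted p under 0.05 (Benjamini-Hochberg over 8816 tested genes), and 126 were not called. Among all tested genes, 23.8% were called lower and 4.87% higher, and the other genes weighted to the members' FPKM classes had 25.6% and 3.10%. The members' median log2 fold change was −0.23 and that of all tested genes −0.15, and 78.9% of members against 71.2% of tested genes had a negative value. Every change was under 1 on the log2 scale: 32 members lay under −0.5, and 1, Zfp935, lay over 0.5 at 0.55 without being called. For weakly expressed genes, adding 1 before taking logs makes these changes smaller than the ratio of FPKM.

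Whatever their p, 83 members (44.9%) had all 3 anti–VEGF-B values under the IgG values and 12 (6.49%) had all of them above, and for 90 the groups overlapped. Values separated in these ways were seen for 38.5% and 10.5% of all tested genes. Of the called members, 2 had overlapping groups, Zfp790 (limma adjusted p 0.0435) and Zfp53 (limma adjusted p 0.0412). A further 38 members had separate groups without being called.

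The size of these counts rested on the test and on single libraries. Without limma's moderation of the variance, 1 member, Zfp715, was called lower (adjusted p 0.0193) and 0 higher, beside 6 lower and 6 higher among 8816 tested genes. At an unadjusted p under 0.05 in that fit, 55 members were lower and 10 higher. The like counts of all tested genes were not made, and 71.2% of those genes had a negative log2 fold change. The limma count of lower members dropped to 23 (12.4%, beside 7.88% of all tested genes) when anti–VEGF-B replicate 3 was left out and to 29 (15.7%, beside 12.5%) for IgG replicate 2. It was 32 (17.3%, beside 16.2%) for anti–VEGF-B replicate 2 and 33 (17.8%, beside 17.3%) for IgG replicate 3. For anti–VEGF-B replicate 1 it was 36 (19.5%, beside 15.5%) and for IgG replicate 1 it was 63 (34.1%, beside 23.5%). For higher members the count was 3 without IgG replicate 1 or 3, 2 without anti–VEGF-B replicate 1 and 1 on leaving out any of the remaining libraries. These were 0.541% to 1.62% of members, beside 1.86% to 4.49% of all tested genes.

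**Figure D1:**
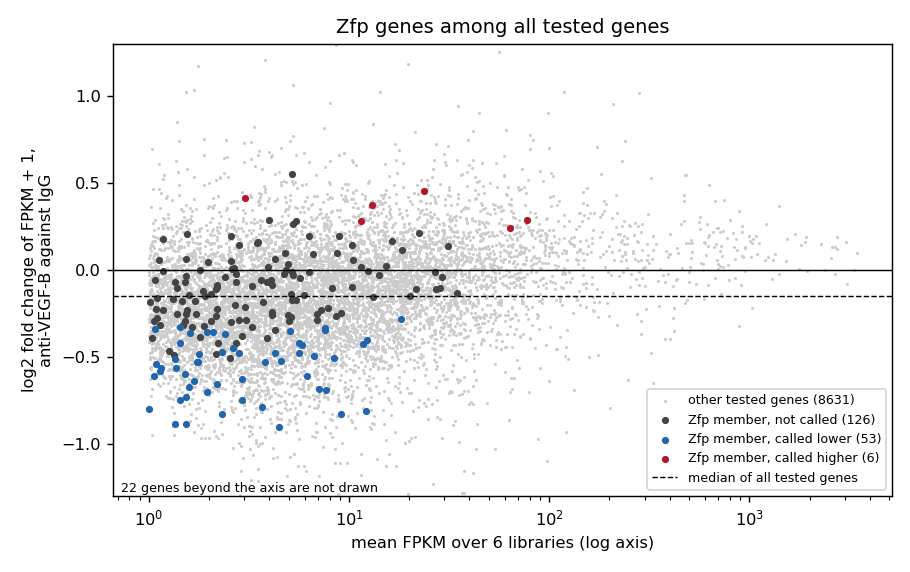
Mean FPKM over the 6 libraries (log axis) against the log2 fold change of FPKM + 1 for the 185 Zfp genes (coloured by call) and the other 8631 tested genes (grey), with the median of all tested genes dashed at −0.15. The 53 Zfp genes called lower lie mostly at low FPKM, and 5 of the 6 called higher lie above 10 FPKM.

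The Zfp genes were weakly expressed beside other tested genes. Members ranged from 1.00 to 77.9 FPKM with a median of 3.02, under the 6.10 of all tested genes, and 65.4% of members against 44.1% of tested genes lay under 5 FPKM. Of the 53 members called lower, 37 (69.8%) lay under 5 FPKM, near the share of all members. Their median was 2.33 FPKM and their highest 18.2, whereas the 6 called higher had a median of 18.4 FPKM. Across members, level and log2 fold change were related with a Spearman rho of 0.33 (n = 185), and across the other tested genes with 0.28 (n = 8631). The level enters both measures, so these values are descriptions only.

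Genes of similar level were therefore set beside the members in 5 classes of mean FPKM. From 1 to 2 FPKM, 23 of 60 members (38.3%) were called lower and 24.7% of other genes, with medians of −0.32 and −0.23. From 2 to 4 FPKM the order was the other way, with 11 of 47 members (23.4%) and 29.3% of other genes lower and a median of −0.23 for both. From 4 to 8 FPKM, 13 of 43 members (30.2%) were lower against 27.1% of other genes. From 8 to 16 FPKM, 5 of 20 members and 24.1% of other genes were lower, with medians of −0.064 and −0.13. From 16 FPKM up, the medians were −0.013 and −0.017, and 1 of 15 members (6.67%) was lower and 3 were higher against 15.8% and 11% of other genes.

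Only in the lowest class was the members' share of lower calls more than 10 percentage points above that of other genes, and the filter on the mean acts there. A gene near 1 FPKM passes on the mean of both groups, so a member with an anti–VEGF-B mean under 1 passed through its IgG libraries alone. There were 23 such members, which had to have the lower mean with anti–VEGF-B, and 14 of them were called lower. The members with an IgG mean under 1 numbered 0. Among all tested genes 387 had a group mean under 1 FPKM, and their share of lower calls was not counted. With both group means at 1 FPKM or more, a requirement chosen after seeing the data, 162 members remained. Of these, 39 (24.1%) were called lower and 6 (3.70%) higher, against 22.7% of other genes lower and 4.89% of all tested genes higher. In the lowest class the shares lower were 24.3% of members and 19.0% of other genes. The members taken out all had the lower mean with anti–VEGF-B, so the smaller share of lower calls is no separate result. The members' share of lower calls was then 23.4% to 30.2% in each of the 4 classes under 16 FPKM. The remaining difference from other genes in the lowest class was not tested. The members' median minus that of their classes was −0.029 as tested and 0.0039 with this requirement.

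The 96 genes under the filter, with a median of 0.472 FPKM, were not tested. Their groups did not overlap for 46 (47.9%) with lower and 3 (3.13%) with higher values under anti–VEGF-B. Of the other tested genes from 1 to 2 FPKM, which is a higher level, 44.7% and 4.37% did so. Among the 96, 15 had an IgG mean of at least 1 against 1 with such an anti–VEGF-B mean. Other listed genes under the filter were not counted in these ways. Just over the filter lay Zfp626 (mean 1.00 FPKM, log2 fold change −0.80, limma adjusted p 0.0114) and Zfp968 (1.01 FPKM, −0.18, limma adjusted p 0.221), both with anti–VEGF-B means under 1 FPKM. Just under it lay Zfp951 (0.991 FPKM) and Zfp992 (0.990 FPKM). Zfp935 was listed in 2 rows, and the other row, at an overlapping position on the same strand, lay under the filter, so reads may have been split between them.

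**Figure D2:**
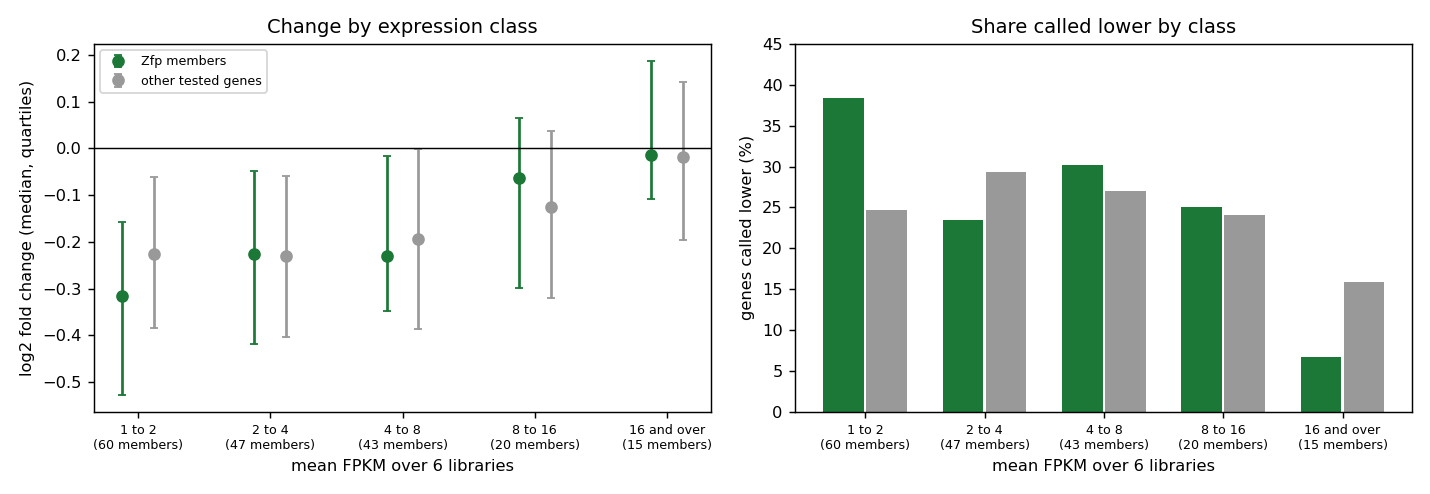
Left, median log2 fold change with quartiles for Zfp genes (green) and other tested genes (grey) in 5 classes of mean FPKM over 6 libraries. Right, the percent of each called lower by limma, with 38.3% of Zfp genes against 24.7% of other genes from 1 to 2 FPKM and shares of 23.4% and 29.3% from 2 to 4 FPKM.

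The split into lower and higher calls depended on how the libraries were scaled. Quantile normalization brought the median of all tested genes from −0.15 to 0.0077, and centring each library on its median brought it to 0.049. After quantile normalization 21 members (11.4%) were lower and 12 (6.49%) higher, beside 10.4% and 9.98% of all tested genes. After median centring 23 (12.4%) were lower and 17 (9.19%) higher, beside 9.15% and 15.5%. The members' median was −0.026 and −0.025 under these scalings. Members called lower as deposited, under both scalings and without each library in turn numbered 18 (9.73%), beside 6.26% of all tested genes, and 0 were higher throughout. Of these, 7 had an anti–VEGF-B mean under 1 FPKM and passed the filter through IgG alone (Zfp397, Zfp446, Zfp617, Zfp626, Zfp629, Zfp677 and Zfp764). Among genes with both group means at 1 FPKM or more, 11 of 162 members (6.79%) and 6.04% of all tested genes were lower throughout. These 11 were Zfp84, Zfp87, Zfp189, Zfp217, Zfp275, Zfp445, Zfp597, Zfp608, Zfp703, Zfp715 and Zfp958.

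IgG replicate 2 was the highest of the 6 libraries for 101 members (54.6%), as it was for 50.9% of all tested genes. The lowest was anti–VEGF-B replicate 3 for 72 members, as it was for 35.7% of all tested genes. The members' median FPKM was 2.97, 2.79 and 2.59 with anti–VEGF-B and 3.00, 3.85 and 3.22 with IgG. The first IgG library thus lay next to the first anti–VEGF-B library, and the second IgG library stood above the rest. The typical SD within a group was 0.143 on the log2 scale for members and 0.127 for other tested genes.

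The 6 largest falls among called members with separate groups were those of Zfp608, Zfp629, Zfp397, Zfp24, Zfp146 and Zfp217. Zfp608, a transcriptional regulator described as a repressor of the recombination-activating genes in thymocytes, was measured at 3.04, 3.14 and 2.28 FPKM with anti–VEGF-B and at 5.06, 7.30 and 6.09 FPKM with IgG. All 3 anti–VEGF-B values lay under the lowest IgG value, and the log2 fold change was −0.90 (SE 0.142, limma adjusted p 0.00634). Its paralog Zfp609, named here after its values were seen, stood at 24.7, 29.0 and 26.9 FPKM against 23.7, 28.1 and 29.7, overlapping groups with a log2 fold change of −0.013 (limma adjusted p 0.929). The difference between the paralogs was not tested.

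Zfp217, a corepressor-associated protein known from amplifications in breast and ovarian cancer, lies on chr2:170108643-170148103 (GRCm38). Its values were 8.78, 9.73 and 7.13 FPKM with anti–VEGF-B and 13.1, 18.8 and 15.5 FPKM with IgG. It was the most abundant of the 6, and its groups stood apart with a log2 fold change of −0.81 (SE 0.143, limma adjusted p 0.00768). Zfp146, a protein made up almost only of zinc fingers (chr7:30161269-30169750), was at 7.47, 7.74 and 4.02 FPKM against 10.3, 13.4 and 11.7. Its log2 fold change was −0.83 (SE 0.200, limma adjusted p 0.0182), with anti–VEGF-B replicate 3 well under the other two, and the adjusted p was 0.0586 without IgG replicate 2.

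Zfp629 (chr7:127607031-127615797) stood at 0.764, 1.04 and 0.547 FPKM with anti–VEGF-B and 2.03, 2.53 and 2.29 FPKM with IgG, a log2 fold change of −0.89 (SE 0.126, limma adjusted p 0.00491). Zfp397 on chromosome 18 was at 0.645, 0.725 and 0.562 FPKM against 1.60, 2.81 and 1.80, a log2 fold change of −0.88 (SE 0.146, limma adjusted p 0.00690). In both genes every anti–VEGF-B value was under the lowest IgG value, but their anti–VEGF-B means were under 1 FPKM, so that both passed the filter only through the group where they were high and had to differ in this direction. Zfp24, a SCAN domain protein needed for myelination, was at 0.619, 1.81 and 1.88 FPKM against 2.54, 3.70 and 3.40 (−0.83, SE 0.217, limma adjusted p 0.0236). Here anti–VEGF-B replicate 1 lay far under the other two. Zfp24 was no longer called after quantile normalization (adjusted p 0.0893), after median centring (0.0579) or without IgG replicate 2 (0.0710) or 3 (0.0552).

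Only 6 members were called higher, and all had separate groups. Zfp141 (chr7:42473386-42505740) was at 27.3, 25.4 and 30.2 FPKM with anti–VEGF-B and 17.8, 20.5 and 21.6 FPKM with IgG, a log2 fold change of 0.45 (SE 0.0974, limma adjusted p 0.0130). It was the largest of these changes and was lost without anti–VEGF-B replicate 3 (adjusted p 0.0518). Zfp451, a ligase for the small modifier SUMO, was measured at 4.03, 4.17 and 2.70 FPKM against 2.36, 2.43 and 2.51 (0.42, SE 0.137, limma adjusted p 0.0488). Its value in anti–VEGF-B replicate 3 lay close to the IgG values, and leaving out any library except anti–VEGF-B replicate 3 ended the call (adjusted p 0.0897–0.145).

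Zfp212 and Zfp777 are KRAB zinc finger genes of the same cluster on chromosome 6, with starts 103.712 kb apart (chr6:47920476-47932639 and chr6:48024188-48048911). Zfp212 stood at 14.1, 16.5 and 14.1 FPKM with anti–VEGF-B and 10.8, 10.7 and 12.2 FPKM with IgG (0.37, SE 0.0953, limma adjusted p 0.0215). Zfp777 stood at 12.3, 12.7 and 12.9 FPKM against 10.4, 10.0 and 10.2 (0.28, SE 0.0777, limma adjusted p 0.0276). The values of Zfp777 hardly varied within a group. Zfp212 was not called without anti–VEGF-B replicate 2 or 3 or IgG replicate 2 (adjusted p 0.0521–0.0650). Zfp777 was called in only 1 leave-one-out fit, that without IgG replicate 1 (adjusted p 0.0546–0.0990 in the others).

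The remaining rises were those of the most abundant members. Zfp395, a gene induced by low oxygen, was at 81.7, 96.8 and 79.2 FPKM with anti–VEGF-B and 70.1, 70.4 and 69.4 FPKM with IgG, a log2 fold change of 0.29 (SE 0.0862, limma adjusted p 0.0365). Zfp52 (chr17:21555046-21562066) was at 67.7, 65.4 and 74.6 FPKM against 58.9, 55.2 and 60.7 (0.24, SE 0.0780, limma adjusted p 0.0446). Both calls were lost on leaving out any 1 library, with adjusted p of 0.0539–0.0881 for Zfp395 and 0.0515–0.164 for Zfp52.

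**Figure D3:**
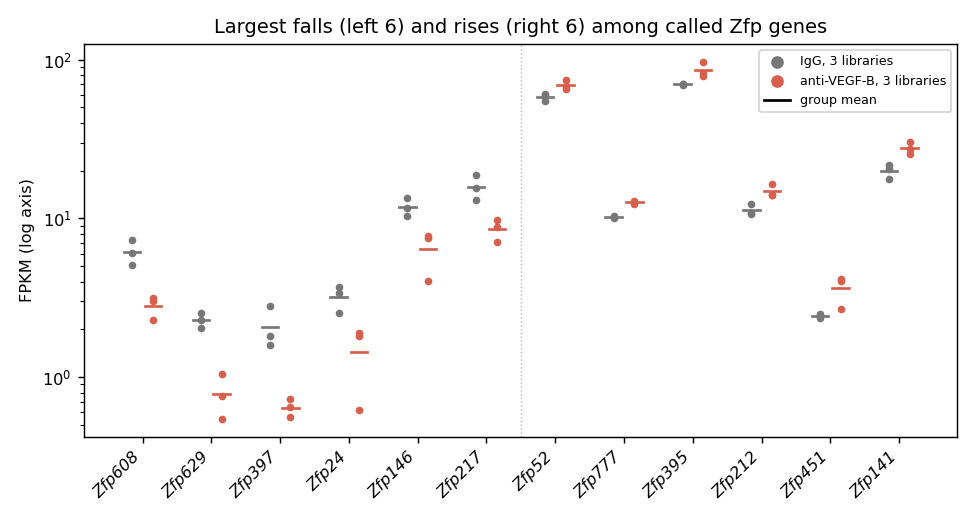
FPKM (log axis) in each of the 3 IgG (grey) and 3 anti–VEGF-B (red) libraries, with group means as lines, for the 6 largest falls (left) and the 6 rises (right) among called Zfp genes with separate groups. The falls lie mostly at a lower level than the rises, and Zfp24 and Zfp146 each have 1 low anti–VEGF-B library.

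The other 4 of the 6 most abundant members were not called. Zfp281, a regulator of pluripotency genes, stood at 33.1 ± 1.75 FPKM (mean ± SD, n = 3) with anti–VEGF-B and 36.4 ± 1.94 with IgG (−0.13, limma adjusted p 0.209). Zfp622, a maturation factor of the large ribosomal subunit, stood at 33.7, 33.6 and 31.0 FPKM against 30.5, 28.8 and 29.6 (0.14, limma adjusted p 0.166), and after median centring it was called higher (0.34, adjusted p 0.0226). Zfp654 (−0.038, limma adjusted p 0.749) and Zfp292 (−0.10, limma adjusted p 0.372) had overlapping groups.

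The members were also grouped by known roles. Of 13 members that act on RNA, DNA damage or proteins, 2 (15.4%) fell, 0 rose and 11 were not called, with a median of −0.11, beside 23.8% of all tested genes lower. Zfp598, the ubiquitin ligase that marks collided ribosomes, was at 10.5, 10.7 and 8.31 FPKM with anti–VEGF-B and 13.6, 14.7 and 12.3 FPKM with IgG (−0.43, SE 0.113, limma adjusted p 0.0245). Zfp830, a protein of the splicing and DNA damage responses, was at 4.86, 3.85 and 5.15 FPKM against 5.74, 9.71 and 7.58 (−0.61, SE 0.168, limma adjusted p 0.0274). Neither was called after quantile normalization (adjusted p 0.0679 and 0.0814) or median centring (0.124 and 0.0704). Zfp598 was also lost without anti–VEGF-B replicate 3 or IgG replicate 1 or 2 (0.0502–0.0830), and Zfp830 on leaving out any library except IgG replicate 1 (0.0541–0.0830).

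Of 24 general transcription regulators, 23 were listed and 21 tested, of which 5 (23.8%, the same share as of all tested genes) fell, 0 rose and 16 were not called (median −0.10). Besides Zfp608 and Zfp217, these were Zfp703, Zfp318 and Zfp148. Zfp703, a corepressor of the NET family, was at 5.71, 5.03 and 4.91 FPKM with anti–VEGF-B and 10.7, 8.02 and 8.38 FPKM with IgG (−0.68, SE 0.118, limma adjusted p 0.00756). Zfp318, which B cells need to express IgD, was at 0.692, 0.980 and 0.546 FPKM against 1.40, 1.90 and 1.41 (−0.57, SE 0.128, limma adjusted p 0.0147). Both genes had separate groups, but Zfp318 passed the filter through its IgG libraries alone, and its call was lost without anti–VEGF-B replicate 3 (adjusted p 0.0586). Zfp148, a factor of GC-rich promoters, was at 6.90, 6.40 and 6.35 FPKM against 7.53, 9.71 and 8.41 (−0.33, limma adjusted p 0.0421). Every leave-one-out fit but the one without IgG replicate 1 ended its call (adjusted p 0.0700–0.125). The call was also lost after quantile normalization (0.216), after median centring (0.256) and with replicate number as a block (0.0560).

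Few of the known silencers of retroelements and imprinted loci reached the filter. Of 9 such genes 7 were listed and 3 tested, and 2 of these (66.7%) fell (median −0.47), beside 23.8% of all tested genes. A share of 3 genes says little. Zfp445, which helps keep genomic imprints, was at 5.90, 5.70 and 5.22 FPKM with anti–VEGF-B and 8.86, 10.9 and 9.25 FPKM with IgG. Its groups lay far apart, with a log2 fold change of −0.69 (SE 0.102, limma adjusted p 0.00511), and the call held under every scaling and without any library. Zfp809, which silences murine leukemia proviruses through their primer binding site, was at 4.17, 5.03 and 4.38 FPKM against 6.90, 7.20 and 5.95 (−0.47, SE 0.107, limma adjusted p 0.0146). It was not called after quantile normalization (adjusted p 0.0720) or median centring (0.0652) or without anti–VEGF-B replicate 3 (0.0564). Zfp932 was not called (−0.18, limma adjusted p 0.285). The 148 members in none of these lists had a median of −0.25, with 44 (29.7%) called lower and 6 (4.05%) higher, beside 23.8% and 4.87% of all tested genes.

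The members were spread over 20 chromosomes, with 42 on chromosome 7 and 24 on chromosome 17. On chromosome 7 there were 16 lower (38.1%) and 1 higher (median −0.26), beside 20.7% of all tested genes there lower (median −0.14). On chromosome 17 there were 10 lower (41.7%) and 1 higher (median −0.31), beside 27.1% (median −0.20). Lower members that passed the filter through IgG alone included Zfp61, Zfp446, Zfp626, Zfp629, Zfp764 and Zfp768 on chromosome 7 and Zfp677 on chromosome 17. The tested genes of a chromosome were not matched to the members' level, and the differences were not tested. In RefSeq (GRCm38.p6), 183 members were matched, and 86 had another Zfp gene as a neighbour. These 86 had a median of −0.26 with 27 (31.4%) called lower, and the 97 without such a neighbour had −0.17 with 26 (26.8%) called lower. The former were also less expressed, at a median of 2.74 against 3.90 FPKM, and the difference was not tested.

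Members separated by at most 300 kb formed 8 runs of 4 or more, 49 members in all. The longest, on chr17:21383748-22377281 (GRCm38), held 12 members and no other tested gene. Within it, Zfp677, Zfp53, Zfp948, Zfp983 and Zfp942 fell by 0.36 to 0.75 on the log2 scale and Zfp52 rose. A further 6 were not called, and the median of the run was −0.27. The share lower in the run was 41.7%, beside 23.8% of all tested genes. Zfp677 passed the filter through IgG alone, and the call of Zfp52 was lost on leaving out any 1 library. Zfp53 lies near Zfp52 and was at 4.46, 4.34 and 5.69 FPKM with anti–VEGF-B and 5.64, 7.70 and 7.27 FPKM with IgG. Its level was thus far under that of Zfp52. Members of such clusters share long stretches of finger sequence, so reads may have been divided between them, and their separate values are uncertain.

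On chr7:127233061-127885996 a run of 8 members had a median of −0.52, and Zfp629, Zfp747, Zfp764 and Zfp768 fell (50.0%, beside 23.8% of all tested genes). Zfp764 was at 0.383, 0.803 and 0.705 FPKM with anti–VEGF-B and at 1.27, 1.76 and 1.43 FPKM with IgG, with separate groups (−0.61, limma adjusted p 0.0128). Zfp629, Zfp764 and Zfp768 had anti–VEGF-B means under 1 FPKM and passed the filter through IgG alone, and the other members of the run had a median of −0.32. Zfp771 in the same run was at 4.64, 5.11 and 4.35 FPKM against 4.35, 5.34 and 4.68, with overlapping groups. The 15 other tested genes within this stretch had a median of −0.31, with 5 called lower. A run of 7 on chr7:29768552-30169750, which ends with Zfp146, had 3 lower (42.9%, median −0.26). A run of 6 on chr13:67387905-67755228 had 2 lower (33.3%, median −0.25), and the 4 other tested genes there had 1 lower (median −0.33). All of these runs are small, and their shares were neither matched for level nor tested against the 23.8% of all tested genes. Over all members, 10 overlapped another listed gene on the same strand and 12 on the opposite strand.

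**Figure D4:**
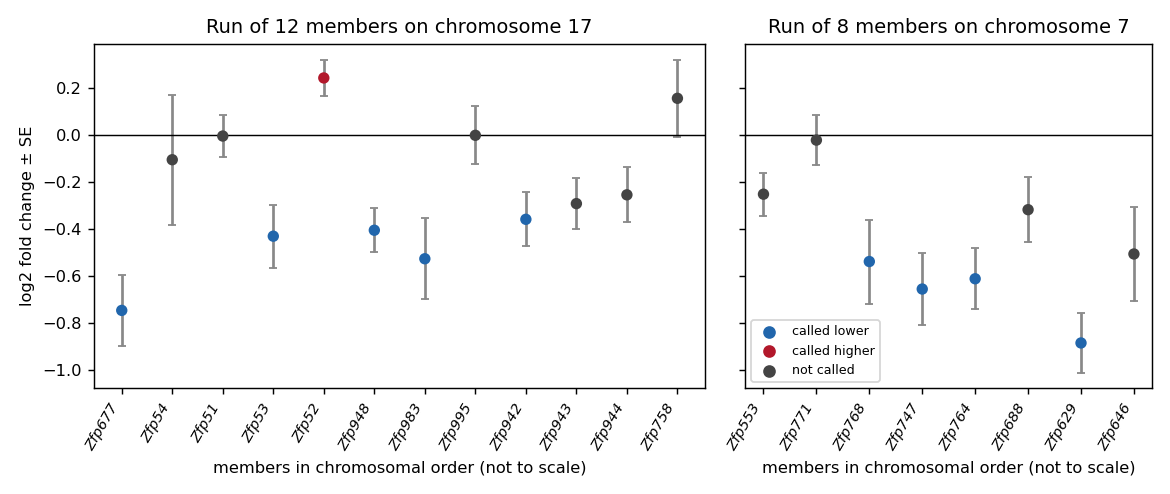
Log2 fold change ± SE from limma for the members of the run of 12 on chromosome 17 (left) and the run of 8 on chromosome 7 (right), in chromosomal order and not to scale, coloured by call. In the run on chromosome 17 Zfp52, the only one called higher, stands between members with negative values or values near 0.

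Genes for the repressor complexes that KRAB proteins recruit were mixed. Of 30 such genes 28 were listed and 26 tested, and 11 (42.3%) fell, 1 (3.85%) rose and 14 were not called, with a median of −0.28, beside 23.8% and 4.87% of all tested genes. Quantile normalization left 6 lower and 2 higher, beside 10.4% and 9.98% of all tested genes. Median centring left 6 lower and 3 higher, beside 9.15% and 15.5%. Trim28, the common partner of KRAB proteins, was at 73.5 ± 4.37 FPKM (mean ± SD, n = 3) with anti–VEGF-B and 77.0 ± 6.22 with IgG, overlapping groups with a log2 fold change of −0.065 (limma adjusted p 0.568). Setdb1 was at 9.06, 10.5 and 9.08 FPKM against 11.1, 13.7 and 12.4 (−0.34, limma adjusted p 0.0362). It was no longer called after quantile normalization (adjusted p 0.119), after median centring (0.232), or without anti–VEGF-B replicate 1 or 3 or IgG replicate 2 or 3 (0.0815–0.116).

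The 4 cofactors with the lowest p belong to the NuRD complex and to the maintenance of DNA methylation. Chd4, the NuRD remodeler, was at 29.3, 36.8 and 25.4 FPKM with anti–VEGF-B and 49.8, 66.6 and 54.5 FPKM with IgG (−0.88, SE 0.143, limma adjusted p 0.00657). Hdac1, its deacetylase, was at 24.6, 25.03 and 22.5 FPKM against 37.2, 45.1 and 36.8 (−0.70, SE 0.0950, limma adjusted p 0.00491). Both had groups far apart, whereas the related deacetylase gene Hdac2 rose (0.26, limma adjusted p 0.0356), a call that was lost without any 1 library other than anti–VEGF-B replicate 1. Uhrf1 (−0.82, limma adjusted p 0.00756) and Dnmt1 (−0.76, limma adjusted p 0.00731), which copy methylation to newly made DNA, also had separate groups. The remaining falls were those of Chd3 (−0.58), Fam208a of the HUSH complex (−0.47), Morc2a (−0.46), Morc3 (−0.37), Suv39h1 (−0.36) and Mta2 (−0.26), with limma adjusted p of 0.0145–0.0386. Chd4, Hdac1, Uhrf1 and Dnmt1 were among the 6 cofactors lower under each of the other scalings, so most of these remaining calls were lost there. The HP1 genes Cbx1 (−0.43), Cbx5 (−0.30) and Cbx3 (−0.037) were not called, nor was Suv39h2 (0.22), whose anti–VEGF-B values all lay above the IgG values.

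Leaving out anti–VEGF-B replicate 3 brought the lower cofactors to 4, anti–VEGF-B replicate 1 to 6 and IgG replicate 2 to 7, and no moderation of the variance brought them to 0. In the same order, 7.88%, 15.5%, 12.5% and 0.0681% of all tested genes were lower. In that unmoderated fit every other member called by limma than Zfp715 had an adjusted p above 0.05, as did all 26 cofactors.

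**Figure D5:**
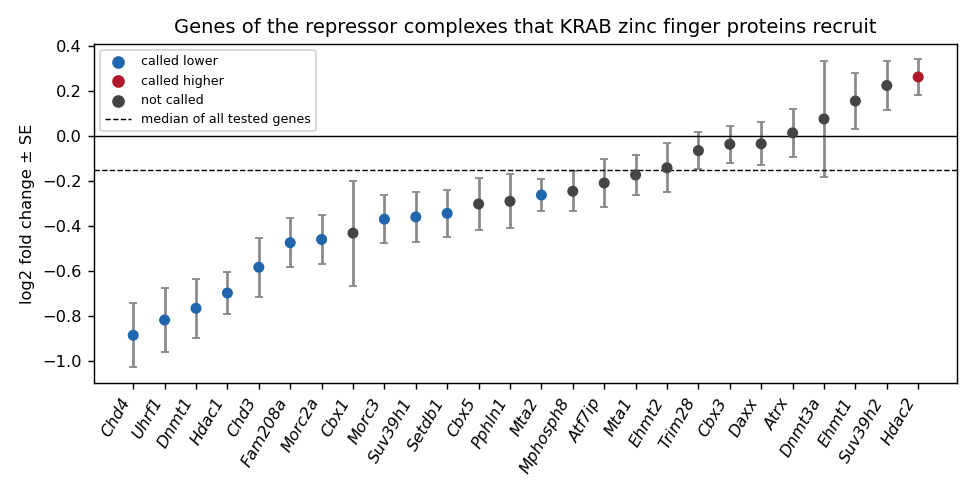
Log2 fold change ± SE from limma for the 26 tested genes of repressor complexes that KRAB zinc finger proteins recruit, ordered by value and coloured by call, with the median of all tested genes dashed at −0.15. Chd4, Uhrf1, Dnmt1 and Hdac1 lie lowest, Trim28 lies near 0, and Hdac2 is the only one called higher.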

How the data were processed

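RNA of 6 libraries, 3 per group, was analysed. The authors sequenced stranded libraries, aligned the reads to GRCm38 (mm10) with hisat2, quantified them with StringTie and Ballgown, and deposited 1 table with no step between libraries stated. Its name speaks of raw data, but the deposited values are not whole numbers. The deposited values were taken to be FPKM, as the authors' use of StringTie and Ballgown gives them, since the unit is not named in the table. No count model was used, and no counting error could be given. The number of columns of other samples was 0. Genes averaging 1 FPKM or more entered the fit of log2(FPKM + 1) by limma 3.58.1 in R 4.3.3 (empirical Bayes with trend, both groups, no covariate) with adjustment by the Benjamini-Hochberg method over 8816 genes. An exact permutation test of 3 against 3 libraries cannot give a p under 0.1, so none is printed.

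Members and gene lists were chosen with earlier results of these data known. Named were the 6 largest falls and rises among called members with separate groups, the 6 most abundant members, called members of the role lists (at most 5 per list), the members next to the filter, and Trim28, Setdb1 and the 4 cofactors with the lowest p. Further genes, among them those of the runs and of the counts, were chosen after their values were seen. Runs of neighbours used the deposited positions, and neighbours came from RefSeq GRCm38.p6. Alternatives changed the scaling, filter, pseudocount, moderation, replicate block and the libraries included. A split by KRAB box or finger number was not made, and no sequence was used here.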

Additional observations from a re-analysis of the deposited data

How the results depend on the processing

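Members numbered 53 lower and 6 higher as tested, with a median log2 fold change of −0.23. After quantile normalization they were 21 and 12 (median −0.026), after median centring 23 and 17 (median −0.025), and with no moderation 1 and 0. With a mean of at least 5 FPKM, 15 were lower and the median was −0.11. Leaving out 1 library gave 23 to 63 lower and 1 to 3 higher. Of all tested genes, 20.1% were lower with the filter of 5 FPKM. On leaving out 1 library, 7.88% to 23.5% of them were lower and 1.86% to 4.49% higher. The median minus that of the same FPKM classes, −0.029, turned to 0.0090 with a mean of at least 5 FPKM and to 0.0039 with both group means at 1 FPKM or more. Of the cofactors, 11 lower and 1 higher as tested, quantile normalization gave 6 and 2, median centring 6 and 3, no moderation 0 and 0, the filter of 5 FPKM 7 lower, and leaving out 1 library 4 to 11 lower and 0 to 1 higher. Of genes not called, quantile normalization turned Zfp654 to 0.026 and Zfp968 to 0.035. Median centring turned Trim28 to 0.14, Zfp292 to 0.099, Zfp281 to 0.067, Zfp654 to 0.16 and Zfp968 to 0.019. Zfp654 lay between −0.072 and 0.019 on leaving out 1 library, with 0.0069 without IgG replicate 3. The cause was not tested, except that a stricter filter tests fewer members.

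With replicate number as a block, 44 members (23.8%) were lower and 5 (2.70%) higher, beside 23.9% and 5.32% of all tested genes. Libraries of the same number deviated from their group means with correlations of −0.030, 0.11 and 0.089, and those of unlike number with −0.17 to 0.0997. With 3 libraries per group these values cannot decide whether the numbers mark pairs, and the main fit was left unpaired.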

Other observations

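The 3 members that varied most within a group, Zfp62, Zfp12 and Zfp180, were named after their values were seen and were not called. Zfp62 was at 1.60, 2.01 and 6.02 FPKM with anti–VEGF-B and 2.33, 8.42 and 2.95 FPKM with IgG, with 1 high library in each group. Zfp12 was at 3.37, 4.51 and 1.43 FPKM against 4.05, 1.37 and 4.93, with 1 low library in each, and it was low in the libraries where Zfp62 was high. Zfp180 was at 2.47, 8.06 and 7.43 FPKM against 2.61, 6.02 and 4.99, lowest in replicate 1 of both groups. Zfp935, the member with the highest log2 fold change (0.55, not called) and with 2 rows in the table, was at 7.51, 6.41 and 4.74 FPKM against 2.73, 2.97 and 6.73.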
